A study of Mus musculus with 16 samples.

Results

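RNA bound to Ago2 was compared with polyadenylated RNA in juxtaglomerular (JG) cells transfected with miR-106b. The genes compared were those with a level of 1 CPM or more (CPM are counts scaled to a common library size) in no fewer than 3 of the 4 libraries of either RNA kind, which gave 14305 of the 46078 genes of the count table. Of these, 12956 passed in both RNA kinds, 608 in Ago2-bound RNA alone and 741 in polyA RNA alone. JG cells are the cells of the kidney arterioles that release renin, and the cells used here were an engineered mouse culture in which the renin promoter drives a yellow fluorescent protein. All 8 libraries of the comparison came from cultures that received miR-106b, and 48 h later 4 cultures were put straight into Trizol for oligo(dT) selection (polyA libraries), while 4 other cultures were trypsinized, lysed and immunoprecipitated for Ago2 (Ago2-IP libraries). The 8 further libraries of the series have the same layout after transfection of a control precursor of non-mammalian sequence. RNA kind, harvest and selection of polyadenylated RNA therefore cannot be told apart in this comparison, and no immunoprecipitation with another antibody was analysed here.

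Ago2 is the Argonaute protein at the core of the RNA-induced silencing complex, or RISC, where it carries a miRNA. The miRNA pairs through its seed with sites that lie mostly in the 3′UTR of an mRNA, and RNA recovered with Ago2 holds both the transcripts held by the complex and whatever else the precipitate carries along. miR-106b belongs to the miR-17 family, which is known for repressing E2F1 and cell cycle inhibitors.

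The family is shown here because the seed defines the sites counted further on. The mature sequences, from RefSeq on GRCm38.p6, are written 5′ to 3′ with the seed (bases 2 to 8) in capitals. miR-106b-5p lies on the minus strand at chr5:138165787-138165807, and 7 mouse miRNAs of the RefSeq table share its seed.
miR-106b-5p: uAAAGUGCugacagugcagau
miR-93-5p: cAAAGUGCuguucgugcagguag
miR-17-5p: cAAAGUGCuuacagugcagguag
miR-20a-5p: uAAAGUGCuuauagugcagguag
miR-20b-5p: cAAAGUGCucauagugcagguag
miR-106a-5p: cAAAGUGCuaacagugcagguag
miR-6383: uAAAGUGCugugucacggaca

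A match to the whole seed in a 3′UTR reads GCACTTT on the transcript strand (7mer-m8), the match to seed bases followed by an A reads CACTTTA (7mer-A1), and both together read GCACTTTA (8mer). Within the annotated 3′UTR of E2f1, the cell cycle transcription factor, GCACTTT occurred at chr2:154559697-154559703 and chr2:154560212-154560218 of GRCm38, on the minus strand. The 3′UTR of Pde3b, a phosphodiesterase that breaks down cyclic AMP, held GCACTTT at chr7:114536399-114536405 and CACTTTA at chr7:114537813-114537819, on the plus strand. Each match is shown in capitals with 10 bases on either side.
E2f1, first: cctccagtctGCACTTTgatttgtttc
E2f1, second: ggctctaactGCACTTTtggtgtcctt
Pde3b, 7mer-m8: tcactcctaaGCACTTTcattacaaac
Pde3b, 7mer-A1: tgaatcactaCACTTTAtttattaaac

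Counts on genes ranged from 2579086 to 3450269 per Ago2-IP library and from 2815272 to 4554848 per polyA library, so that a gene with 0 counts could still lie at up to 0.659 to 1.16 CPM, a limit that covers counting error only. Ren1, the renin gene that defines JG cells, had no counts in the 8 libraries. The gene with the most counts in both RNA kinds was Myh6, the myosin heavy chain of heart muscle, and the 28 cardiac muscle genes of the marker list took 11.95 to 13.1% of the counts in Ago2-IP and 5.34 to 9.17% in polyA libraries. Ren1 and the heart genes thus went against the label in both RNA kinds, while other kidney and mural markers varied. In polyA RNA Pax8, Cdh16, Foxd1, Tagln and Acta2 had means of 169, 156, 60.2, 334 and 562 CPM, Lrp2 and Cubn of the kidney tubule had means of 7.59 and 2.09 CPM, and only 5 of 14 kidney epithelium genes passed the filter, with 2 of the 14 at 0 counts in all 8 libraries. Groups below are named by their labels only. Chi-square per degree of freedom between replicates was 2.15 to 11.4 within Ago2-IP and 6.75 to 29.9 within polyA, ranges that overlap, and no pair agreed within sampling noise.

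Across the transcriptome, 5770 of 14305 genes (40.3%) differed between the RNA kinds by edgeR's quasi-likelihood test at a Benjamini-Hochberg adjusted p under 0.05, 2800 higher in Ago2-IP (19.6%) and 2970 lower (20.8%). At 2-fold or more, 631 were higher (4.41%) and 1219 lower (8.52%). In 5533 genes (38.7%) the 4 libraries of one kind lay wholly apart from those of the other, 2720 with Ago2-IP above (19%) and 2813 with Ago2-IP below (19.7%). Log2 ratios (Ago2-IP minus polyA, after TMM scaling) had a median of -0.03 with quartiles of -0.49 and 0.52. With scaling by library size alone the median moved by -0.15 and 34.3% of called genes were higher, against 48.5% under TMM and 56.1% under upper quartile scaling. The number of genes 2-fold higher was 329 without polyA library 1 and 998 without polyA library 2, so that it rests on single polyA libraries. The filter itself passed genes through one kind only: 183 of the 608 genes that passed in Ago2-IP alone were called higher, and 205 of the 741 that passed in polyA alone were called lower.

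**Figure D1:**
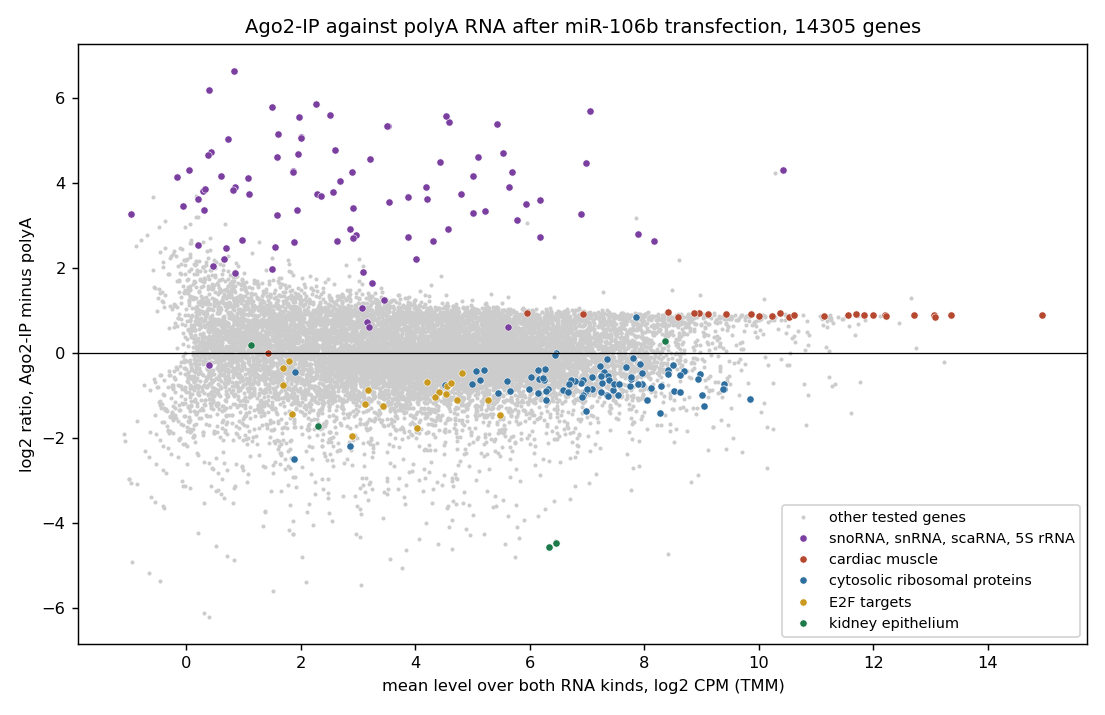
Log2 ratio of Ago2-IP to polyA RNA (vertical axis) against the mean level over both kinds in log2 CPM (horizontal axis) for 14305 genes, each point 1 gene. Small structured RNAs (purple) lie at the top, the cardiac muscle genes (red) form a narrow band near 0.89, ribosomal protein genes (blue) lie mostly below 0 (Rpl3l is at 0.85), and Pax8 and Cdh16 (green) lie near -4.5.

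The highest ratios belonged to small structured RNAs without a poly(A) tail. snoRNA genes, which guide the chemical modification of ribosomal RNA, were called higher in 49 of 50 tested, where 19.6% of all genes were higher. Their median log2 ratio was 4.25, but 34 of the 50 had passed the filter in Ago2-IP alone. Among the 16 that passed in both kinds, 16 were higher (median 3.76). Of the snRNA genes, components of the spliceosome, 14 of 17 were higher, as were 10 of 10 scaRNA genes and 15 of 15 genes annotated as rRNA. Of these classes, in that order, 7, 5 and 8 genes had passed the filter in Ago2-IP alone. Among those that passed in both kinds, 8 of 10 snRNA, 5 of 5 scaRNA and 7 of 7 rRNA genes were higher. In none of these 4 classes was a gene called lower, where 20.8% of all genes were lower. The authors removed reads of ribosomal RNA, and the rRNA and snRNA genes have near-identical copies, so that the level of a single copy is uncertain.

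Rpph1, the RNA of ribonuclease P, was at 1988, 4991, 1642 and 867 CPM in Ago2-IP libraries 1 to 4 and at 98.3, 104, 168 and 134 CPM in the polyA libraries. The groups were far apart, and the log2 ratio was 4.24 (SE 0.60, edgeR adjusted p = 0.0018). Rmrp, the RNA of the related ribonuclease MRP, was at 386, 852, 269 and 159 CPM against 25.2, 37.8, 77.8 and 44.8 CPM (log2 ratio 3.17, SE 0.65, edgeR adjusted p = 0.0094). Gm22513, an snRNA gene, was at 2332, 5697, 1722 and 683 CPM against 80.3, 113, 200 and 138 CPM (log2 ratio 4.30, SE 0.74, edgeR adjusted p = 0.0046). In each of these RNAs Ago2-IP library 2 was the highest and library 4 the lowest of its kind, and polyA library 3 was the highest of the other kind. Rn7sk, the abundant 7SK RNA that restrains transcription elongation, did not pass the test: 104, 149, 81.1 and 51.8 CPM stood against 89.6, 75.9, 154 and 78.5 CPM (log2 ratio -0.05, edgeR adjusted p = 0.93). Its groups overlapped. The Y RNAs Rny1 and Rny3 had log2 ratios of 1.07 and 1.67 (edgeR adjusted p = 0.042 and 0.025) with overlapping groups, and these calls ended when Ago2-IP library 1 or 2, or polyA library 1 or 4, was left out, with Rny1 at 0.164 without Ago2-IP library 1 and Rny3 at 0.101 without polyA library 1. Leaving out polyA library 2 or scaling by library size alone (adjusted p = 0.0839) also ended the call of Rny1, and leaving out polyA library 3 that of Rny3.

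Many of the snoRNAs were of the H/ACA class, which carries the letters ACA 3 bases before its 3′ end. Of the 50 tested, 33 (66%) ended in ACANNN, against 77 of the 205 snoRNA genes with a count in any of the 8 libraries (37.6%). Of the 1484 snoRNA genes of the count table with a sequence in the annotation, 17.99% did. Since 34 of the 50 had passed the filter through their level in Ago2-IP alone, these shares describe the genes that were measured and nothing is read from their difference. The last 28 bases of 3 of the RNAs with high ratios, from the GENCODE M21 transcripts, show the box in capitals and, in Snora47, no ACA at that distance.
Snora57: ggttctatcctcagacgccggaACActt
Snora78: ggagggtgaaacccaggcccctACAttc
Snora47: ggggcagcactgagctggcccacattgt

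Snora57, at chr19:8888538-8888685 of GRCm38, was at 343, 476, 185 and 33.1 CPM in Ago2-IP and at 2.96, 4.31, 8.53 and 4.13 CPM in polyA libraries (log2 ratio 5.70, SE 0.98, edgeR adjusted p = 0.0049). Snora78, at chr17:24719676-24719803, was at 293, 454, 177 and 42.1 CPM against 9.11, 9.89, 15.0 and 9.64 CPM (log2 ratio 4.46, SE 0.79, edgeR adjusted p = 0.0055). Snora47, at chr13:95330600-95330737, was at 52.0, 82.9, 41.9 and 4.68 CPM against 0.424, 0.507, 1.81 and 1.03 CPM (log2 ratio 5.58), and had passed the filter in Ago2-IP alone, so that its ratio is a description of size. The lowest Ago2-IP library, number 4, lay above every polyA library for all 3. The rule that named these genes required groups that do not overlap, so that nothing is read from this.

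As shares of a library, snRNA took 0.352, 0.748, 0.242 and 0.0994% of the counts in Ago2-IP libraries 1 to 4 and 0.0186, 0.0265, 0.0560 and 0.0314% in polyA libraries. snoRNA shares were 0.218, 0.296, 0.126 and 0.0251% against 0.00661, 0.00995, 0.0206 and 0.00888%. The means differed 10.9-fold and 14.4-fold, with groups that did not overlap (two-sided exact permutation p = 0.0286, which is the smallest value with 70 relabellings, and 0.0408 after adjustment over 10 classes). The spread within Ago2-IP was wide, 0.360 ± 0.278% (SD, n = 4) for snRNA. Gm10800, a satellite-like locus, followed the library order of snRNA, with 1.06, 1.504, 0.771 and 0.148% of the counts in Ago2-IP libraries 1 to 4 and 0.0646, 0.240, 0.729 and 0.563% in polyA libraries (exact permutation p = 0.2). Its part in the small RNA ratios was not tested.

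**Figure D2:**
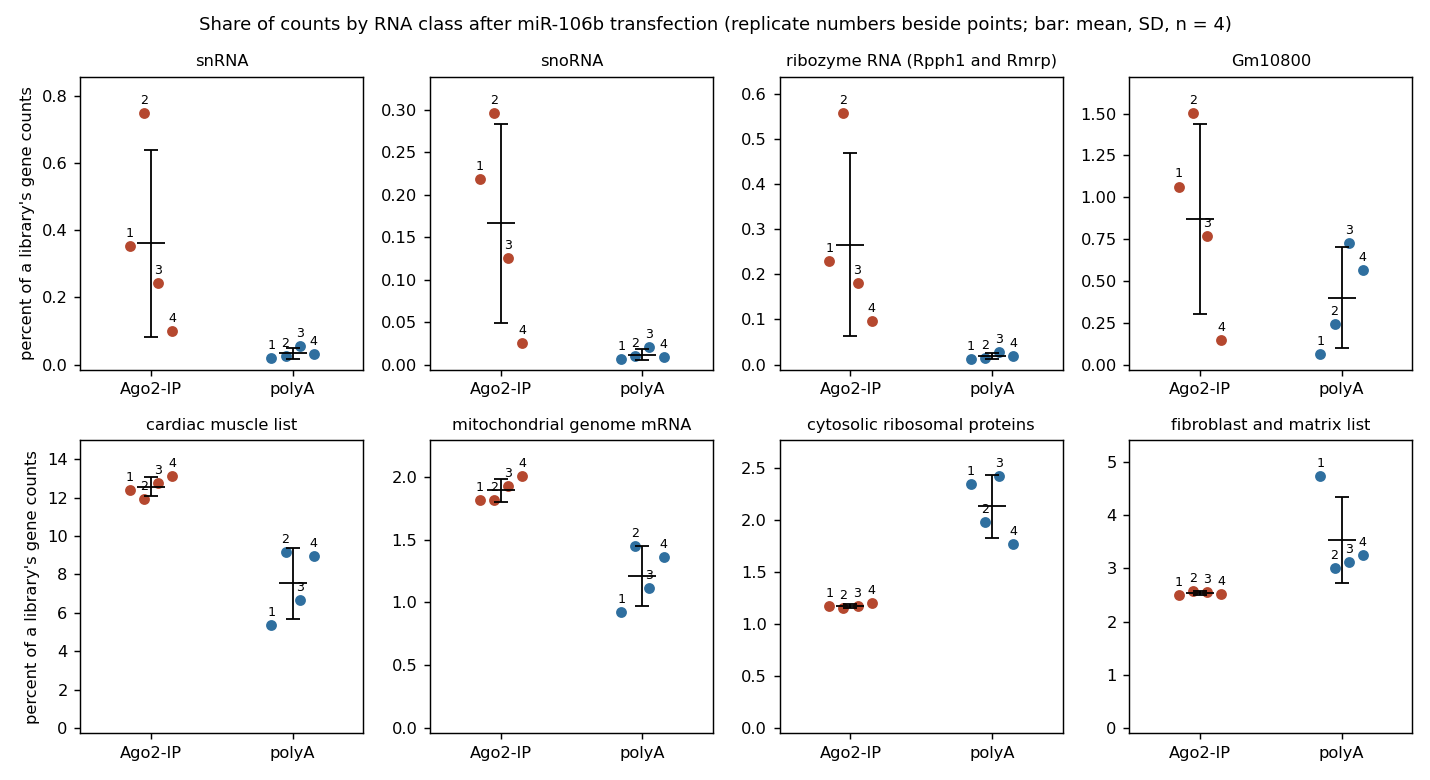
Percent of each library's gene counts (vertical axes) in 8 RNA classes for the 4 Ago2-IP (red) and 4 polyA (blue) libraries, with replicate numbers beside the points and bars for mean and SD. snRNA, snoRNA and the pair of ribozyme RNAs were higher in every Ago2-IP library than in every polyA library, Gm10800 overlapped, and Ago2-IP libraries spread least for ribosomal protein and matrix genes.

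Of 16 long noncoding RNAs tested, 4 were higher and 3 lower (4 and 2 among the 15 that passed in both kinds), shares near the 19.6% and 20.8% of all genes. Gas5, a noncoding transcript whose introns hold snoRNAs, was at 14.5, 18.2, 14.6 and 12.5 CPM in Ago2-IP and at 75.2, 36.5, 54.1 and 37.2 CPM in polyA RNA (log2 ratio -1.77, SE 0.23, edgeR adjusted p = 0.00012). Another snoRNA host, Snhg12, had a log2 ratio of -2.01 (edgeR adjusted p = 0.00041). Both hosts were thus lower in Ago2-IP while snoRNA genes as a class were higher, but the snoRNAs of their own introns were not compared with them. Meg3, an imprinted noncoding RNA, was at 144, 142, 141 and 177 CPM against 58.9, 101, 62.1 and 100 CPM (log2 ratio 0.91, edgeR adjusted p = 0.0013). Airn, which is transcribed antisense to Igf2r, had a log2 ratio of 0.97 (edgeR adjusted p = 0.0078) and cannot be told apart from its partner where they overlap. Malat1, retained in the nucleus, had overlapping groups (3488, 3535, 2208 and 1704 CPM against 1307, 1940, 2200 and 1504 CPM, log2 ratio 0.65, edgeR adjusted p = 0.041), and its call ended without Ago2-IP library 1 or 2 or without polyA library 1, 2 or 4, with adjusted p up to 0.16, under scaling by library size alone (adjusted p = 0.134) and with all 16 libraries in 1 fit (adjusted p = 0.0716).

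The most abundant group on the Ago2-IP side was that of heart muscle. Of 27 cardiac muscle genes tested, 26 were higher in Ago2-IP and 0 lower, and all 8 cardiac transcription factors tested were higher, where 19.6% of all genes were higher. Myh6 was at 39379, 38502, 41173 and 43298 CPM in Ago2-IP and at 15699, 27347, 18533 and 26669 CPM in polyA RNA (log2 ratio 0.88, SE 0.21, edgeR adjusted p = 0.0045). The Ago2-IP libraries lay close together, whereas polyA libraries 1 and 3 were lower than 2 and 4. Mb (myoglobin), Actc1 (cardiac actin), Atp2a2 (the calcium pump of the sarcoplasmic reticulum) and Tnnt2 (troponin T) had log2 ratios of 0.88, 0.89, 0.85 and 0.90. The 26 cardiac genes with at least 5 CPM in both kinds spanned only 0.85 to 0.95, with an SD of 0.03, against an SD of 0.69 over all 10192 genes at that level. The exception of the list was Myl4, the atrial light chain, with a log2 ratio of -0.01 at 2.68 CPM in Ago2-IP (chosen after its value was seen).

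Genes of other cell types that a heart or kidney preparation could hold sat at nearly the same ratio. Endothelial genes were higher in 14 of 15 (median 0.86), macrophage and leukocyte genes in 14 of 15 (median 0.91) and red cell genes in 4 of 5 (median 0.79), with 0 lower in each, where 19.6% of all genes were higher. Cdh5, the cadherin of endothelial junctions, was at 457, 429, 475 and 466 CPM against 181, 321, 223 and 297 CPM (log2 ratio 0.84, SE 0.16, edgeR adjusted p = 0.001). C1qc, a complement subunit made by macrophages, was at 315, 325, 340 and 361 CPM against 124, 225, 152 and 214 CPM (log2 ratio 0.91, SE 0.16, edgeR adjusted p = 0.00085). In both genes polyA libraries 1 and 3 were again the lowest, the pattern seen in Myh6. Summed levels were 2365 to 2598 CPM in Ago2-IP against 1071 to 1947 CPM in polyA RNA for the endothelial list, and 2036 to 2193 CPM against 895 to 1540 CPM for the macrophage list. Cd14, a receptor of the same myeloid cells, did not pass the test (log2 ratio -0.14, edgeR adjusted p = 0.63). In bulk libraries a different number of cells of a type and a different amount of RNA per cell cannot be told apart. Nor can either be told apart here from the harvest and RNA selection that differ between the kinds. The part of these cell types in the other ratios was not tested.

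**Figure D3:**
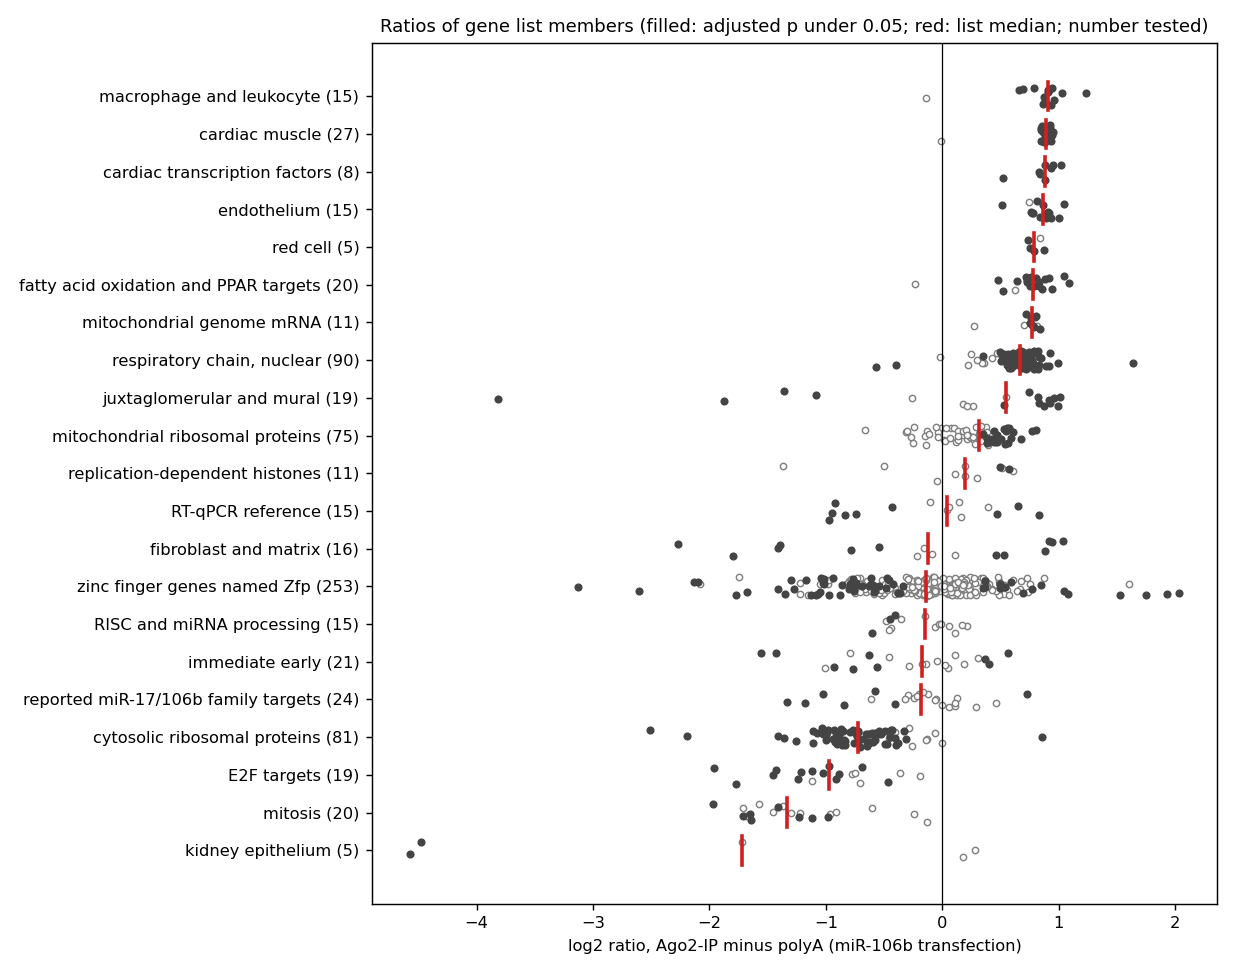
Log2 ratio of Ago2-IP to polyA RNA (horizontal axis) for every tested member of 21 gene lists (vertical axis, number tested in parentheses), with filled points for adjusted p under 0.05 and red bars for list medians. The cell type lists of heart, endothelium, macrophages and red cells share a median between 0.79 and 0.91, while mural and matrix lists spread to both sides.

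Of 19 genes of JG and mural cells, the contractile cells around vessels, 10 were higher and 4 lower, where 19.6% of all genes were higher and 20.8% lower, so that the share that was lower is that of all genes. Among those higher were Rgs5, a regulator of G protein signalling in pericytes (145, 158, 173 and 172 CPM against 59.1, 95.9, 73.4 and 97.8 CPM, log2 ratio 0.995, edgeR adjusted p = 0.00028), Myh11 (0.92), the smooth muscle myosin, and Des (0.87), desmin. Those lower were Tagln, an actin-binding protein of smooth muscle (99.5, 90.2, 89.9 and 85.1 CPM against 433, 256, 317 and 327 CPM, log2 ratio -1.87, edgeR adjusted p = 3.6e-06), Acta2 (-1.08), smooth muscle actin, Tbx18 (-1.36) and Foxd1 (-3.82), the factor of the kidney stroma from which renin cells arise. Foxd1 was at 4.03, 8.81, 2.72 and 1.25 CPM in Ago2-IP and 119, 19.5, 30.0 and 72.3 CPM in polyA RNA (edgeR adjusted p = 0.012).

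Of 16 matrix genes 6 were higher and 6 lower, beside the same 19.6% and 20.8% of all genes. Fn1 (fibronectin) was at 1657, 1738, 1688 and 1695 CPM against 4467, 4695, 6136 and 2758 CPM (log2 ratio -1.41, SE 0.20, edgeR adjusted p = 0.00017). Lox, which crosslinks collagen, was at 232, 288, 221 and 207 CPM against 2528, 428, 510 and 1106 CPM (log2 ratio -2.27, edgeR adjusted p = 0.026). PolyA library 1 held by far the most Lox, and the call ended without Ago2-IP library 1, 3 or 4, with adjusted p up to 0.0624, and with no filter on low counts (adjusted p = 0.0535). Col1a1, the main fibrillar collagen, overlapped between kinds (log2 ratio -0.22, edgeR adjusted p = 0.40).

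Among the lowest ratios of abundant genes were those of factors of the kidney and of body position. Pax8, a transcription factor of the nephron lineage, was at 4.84, 16.1, 6.81 and 1.87 CPM in Ago2-IP and at 276, 81.2, 134 and 185 CPM in polyA RNA (log2 ratio -4.48, SE 0.65, edgeR adjusted p = 0.0022). Cdh16, the kidney-specific cadherin, was at 5.24, 11.8, 7.15 and 1.56 CPM against 161, 109, 156 and 197 CPM (log2 ratio -4.57, SE 0.41, edgeR adjusted p = 0.00016). Both were far lower in every precipitate than in any polyA library, and Ago2-IP library 2 held the most of each. Of the kidney epithelium list 5 of 14 genes were tested, and Aqp1, a water channel that endothelium also makes, was at 327 to 378 CPM against 211 to 342 CPM and did not pass (edgeR adjusted p = 0.13, but 0.0417 with all 16 libraries in 1 fit).

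Hoxb9, a homeobox factor of posterior position, was at 6.04, 15.8, 4.77 and 3.74 CPM against 254, 87.8, 154 and 171 CPM (log2 ratio -4.43, edgeR adjusted p = 0.00095). Prrx2, a homeobox factor of mesenchyme, was at 6.45, 11.5, 4.77 and 6.24 CPM against 165, 73.3, 118 and 89.9 CPM (log2 ratio -3.92, edgeR adjusted p = 3.2e-05). In both the groups were far apart, with polyA library 1 the highest. Peg10, an imprinted retrotransposon-derived gene, was at 10.9, 10.02, 6.47 and 9.67 CPM against 157, 120, 182 and 68.2 CPM (log2 ratio -3.83, SE 0.32, edgeR adjusted p = 3.9e-05). Further genes of this side were Lxn, a carboxypeptidase inhibitor (log2 ratio -3.68), and, below 5 CPM in Ago2-IP and through the filter in polyA RNA alone, Hoxc10 (-4.63), another homeobox factor. Their ratios are descriptions of size, since the ratio chose them.

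**Figure D4:**
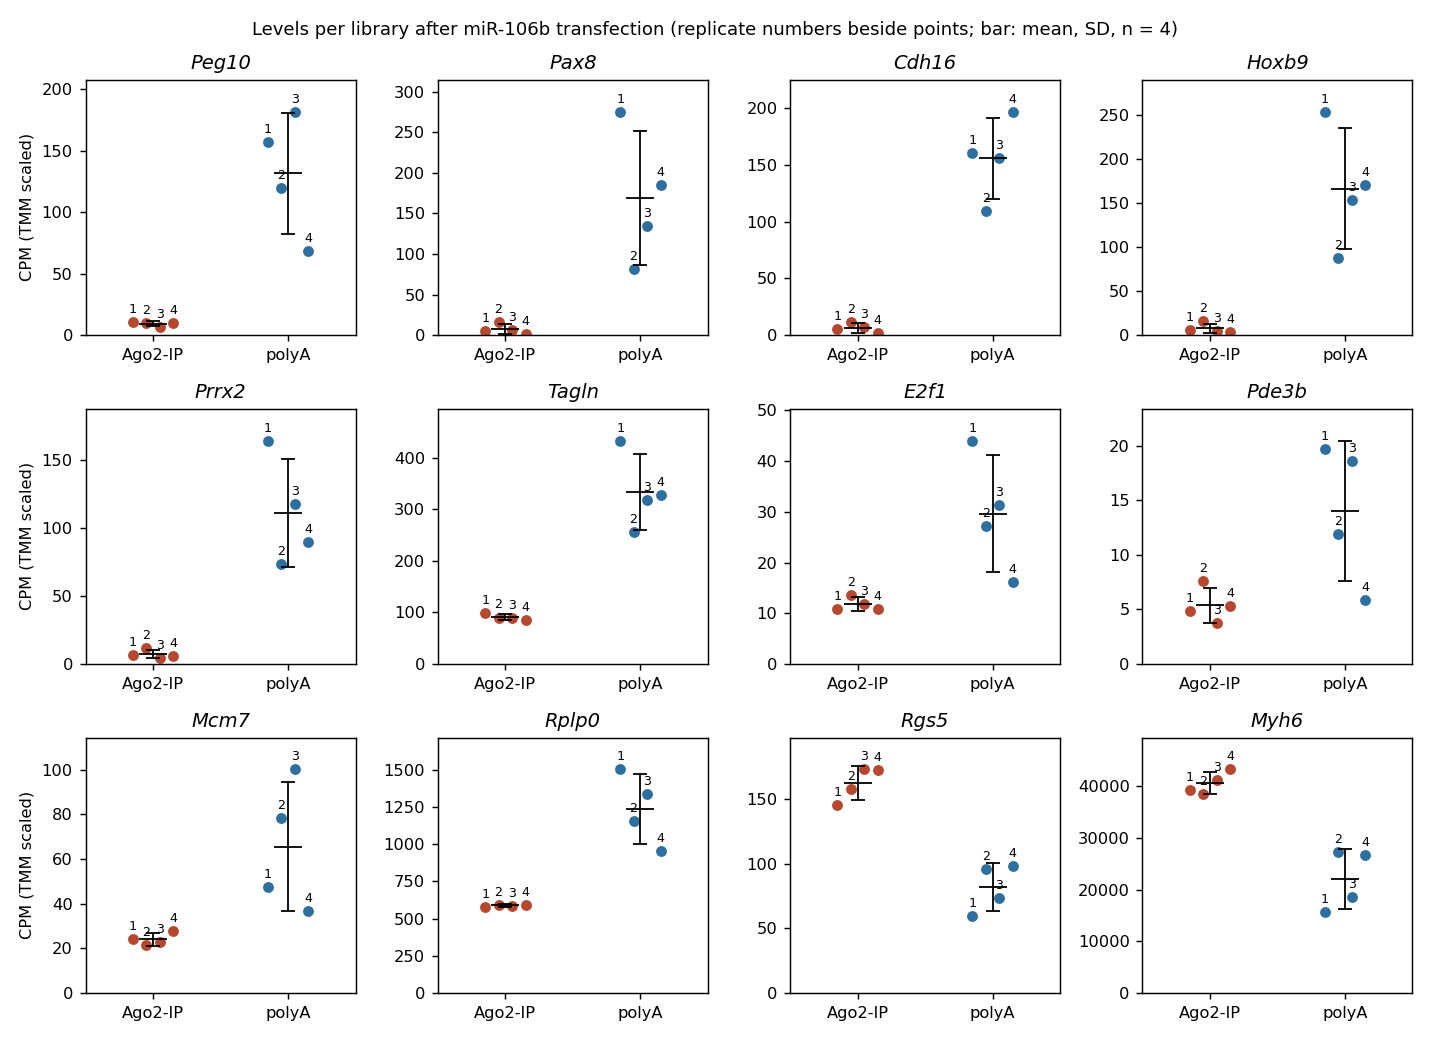
CPM after TMM scaling (vertical axes, each from 0 or just below) of 12 genes in the 4 Ago2-IP (red) and 4 polyA (blue) libraries, with replicate numbers beside the points and bars for mean and SD. Peg10, Pax8, Cdh16, Hoxb9 and Prrx2 are near 0 in Ago2-IP, Pde3b is the gene shown whose groups overlap, and Rgs5 and Myh6 are higher in every Ago2-IP library.

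Genes of energy metabolism were read against the 19.6% of all genes that were higher and the 20.8% that were lower. Of 90 nuclear-encoded respiratory chain subunits 78 were higher and 2 lower (median 0.67, and 77 and 2 of the 89 that passed in both kinds), of 11 mRNAs of the mitochondrial genome 8 were higher and 0 lower (median 0.77, and 8 of the 9 that passed in both kinds), and of 20 genes of fatty acid oxidation and PPAR targets 18 were higher and 0 lower (median 0.78). mt-Nd1, a subunit of complex I, was at 2891, 2897, 3195 and 3385 CPM against 1371, 2175, 1515 and 1999 CPM (log2 ratio 0.81, SE 0.17, edgeR adjusted p = 0.0017). Fabp3, the fatty acid binding protein of heart, had a log2 ratio of 0.88 and Cpt1b, the muscle form of the carnitine transferase, one of 1.09. Cpt1a, the form of liver and many other tissues, was at 77.5 ± 1.54 CPM (SD, n = 4) against 90.9 ± 11.4 CPM and did not pass (log2 ratio -0.23, edgeR adjusted p = 0.13), but it was lower under scaling by library size alone (log2 ratio -0.38, adjusted p = 0.0155) and with all 16 libraries in 1 fit (adjusted p = 0.0397). Cox6a1, the widely expressed form of a complex IV subunit, was among the 2 that were lower (log2 ratio -0.57, edgeR adjusted p = 0.0016). Mitochondrial ribosomal protein genes were higher in 27 of 75 and lower in 0 under TMM, but under scaling by library size alone 12 were higher and 1 lower, where 14.7% of all genes were higher and 28.3% lower.

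Of 81 cytosolic ribosomal protein genes 72 were lower and 1 higher, where 20.8% of all genes were lower, and the median log2 ratio was -0.72. Among the 80 that passed in both kinds 71 were lower and 1 higher. Together they took 1.17, 1.15, 1.17 and 1.20% of the counts in Ago2-IP and 2.35, 1.98, 2.42 and 1.77% in polyA libraries (exact permutation p = 0.0286, 0.0408 after adjustment over 10 classes). Rplp0, of the ribosomal stalk, was at 581, 594, 583 and 595 CPM against 1504, 1160, 1340 and 956 CPM (log2 ratio -1.08, SE 0.15, edgeR adjusted p = 0.00012). The single member that was higher was Rpl3l, the form of Rpl3 made in heart and skeletal muscle, at 291, 301, 282 and 319 CPM against 123, 203, 139 and 196 CPM (log2 ratio 0.85, edgeR adjusted p = 0.00078). Its ratio lay in the range of the cardiac muscle genes.

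Of 19 E2F targets, genes of DNA replication and the cell cycle, 13 were lower in Ago2-IP and 0 higher (median -0.97), where 20.8% of all genes were lower. Of 20 mitosis genes 8 were lower, 0 higher and 12 did not pass (median -1.33), but 3 of the 20 had passed the filter in polyA RNA alone, and among the other 17 there were 7 lower (median -1.30). Mcm7, a subunit of the replicative helicase, was at 24.2, 21.3, 22.8 and 27.8 CPM against 47.4, 78.1, 100 and 36.5 CPM (log2 ratio -1.45, SE 0.29, edgeR adjusted p = 0.0032). Mki67, a marker of dividing cells, was at 18.5, 17.9, 19.4 and 14.03 CPM against 18.0, 53.3, 84.6 and 14.8 CPM and did not pass (log2 ratio -1.30, edgeR adjusted p = 0.13, but 0.0396 with all 16 libraries in 1 fit and 0.0439 without polyA library 4). PolyA libraries 2 and 3 held the high values in both, while polyA libraries 1 and 4 overlapped Ago2-IP for Mki67. The summed level of the E2F targets was 206 to 217 CPM in Ago2-IP and 292 to 764 CPM in polyA libraries, a range of the polyA libraries far wider than that of the precipitates. For the mitosis genes it was 133 to 150 CPM in Ago2-IP and 157, 439, 706 and 169 CPM in polyA libraries 1 to 4, so that polyA libraries 1 and 4 lay close to the precipitates.

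The genes that the study names were read next. E2f1 was at 10.9, 13.7, 11.9 and 10.9 CPM in Ago2-IP and at 44.0, 27.1, 31.3 and 16.2 CPM in polyA RNA. All Ago2-IP libraries lay below all polyA libraries (log2 ratio -1.33, SE 0.25, edgeR adjusted p = 0.0011). Pde3b was at 4.84, 7.59, 3.75 and 5.30 CPM against 19.7, 11.9, 18.6 and 5.85 CPM, with polyA library 4 inside the Ago2-IP range (log2 ratio -1.39, SE 0.35, edgeR adjusted p = 0.0057). These are the transcripts whose seed matches are printed above, and both were lower in Ago2-IP after miR-106b. Their log2 ratios in the control transfection were -2.07 for E2f1 and -2.44 for Pde3b, and the change with miR-106b was 0.70 (SE 0.32) and 1.02 (SE 0.49) in the fit of all 16 libraries, which did not pass (edgeR adjusted p = 0.11 and 0.13). Pde10a, another phosphodiesterase, had no such match and a log2 ratio of -0.83 (SE 0.24, edgeR adjusted p = 0.013), against -1.98 in the control, and this change of 1.12 (SE 0.28) passed (edgeR adjusted p = 0.0045). Ppargc1a, the PGC-1α coactivator of mitochondrial genes, was higher at 48.4, 48.9, 56.2 and 47.4 CPM against 19.9, 34.8, 22.2 and 33.4 CPM (log2 ratio 0.87, edgeR adjusted p = 0.0016), a ratio in the range of the heart genes. Its ratio was 2.25 in the control, and the change of -1.38 (SE 0.26) passed (edgeR adjusted p = 0.00037). Pparg and Creb1 did not pass (log2 ratios 0.20 and -0.10, edgeR adjusted p = 0.68 for each).

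Among 15 genes of RISC and miRNA processing, 3 were lower in Ago2-IP and 0 higher (median -0.15). Over all genes 20.8% were lower, a share near that of the list, and 19.6% higher. The mRNA of Ago2 itself was at 150, 142, 141 and 154 CPM against 155, 151, 163 and 144 CPM, with overlapping groups (log2 ratio -0.06, SE 0.10, edgeR adjusted p = 0.64). Those lower were Ago1 (-0.45), Drosha (-0.40), the nuclear miRNA processing enzyme, and Pan3 (-0.61), a deadenylase subunit, with edgeR adjusted p of 0.032, 0.017 and 0.026. Each of these calls ended when Ago2-IP library 2 was left out (adjusted p = 0.0876, 0.0672 and 0.0915), that of Ago1 also without Ago2-IP library 1, 3 or 4 or polyA library 1 or 3, that of Drosha without Ago2-IP library 3, and that of Pan3 without Ago2-IP library 1 or polyA library 3. Upper quartile scaling also ended the calls of Ago1 and Pan3 (adjusted p = 0.0678 and 0.0534). Of 24 reported targets of the miR-17 family 1 was higher and 6 lower (median -0.18), beside the same 19.6% and 20.8% of all genes. The higher one was Vegfa, the vascular growth factor (log2 ratio 0.73, edgeR adjusted p = 0.0013), and the lower ones included E2f1 and Ccnd2, a G1 cyclin (log2 ratio -0.84, edgeR adjusted p = 0.018, and 0.0502 without polyA library 4). Under scaling by library size alone 1 of the 24 was higher and 11 lower, where 14.7% of all genes were higher and 28.3% lower.

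Transcripts with a seed match to miR-106b were set beside all transcripts with a 3′UTR. Of 12951 tested genes with an annotated 3′UTR, 1994 (15.4%) held at least 1 GCACTTT, of which 371 (18.6%) were higher and 402 (20.2%) lower, against 19.7% and 22.3% of all. The median log2 ratio was -0.04 with a match and -0.06 over all, 0.01 in the 309 genes with at least 2 matches and -0.03 in the 600 genes with GCACTTTA. For the same genes the median in the control transfection was -0.12 with a match, -0.12 with at least 2 and -0.07 with GCACTTTA, against -0.07 over all. Genes with 1 or more, and with 2 or more, GCACTTT thus had medians below that of all genes in the control and above it after miR-106b, a shift that was not tested. Genes with CACTTTA alone had a median of -0.120 in the control and -0.062 after miR-106b, against -0.066 and -0.058 over all. Searching used the longest 3′UTR per gene, and genes with a match had longer ones, with a median of 2684 bases against 1408 over all. Across genes the ratio was hardly related to transcript length (Spearman's rho -0.007, n = 12746), 3′UTR length (rho -0.003, n = 12683) or GC content (rho 0.055, n = 12746), values that describe genes of the same 8 libraries and carry no test.

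The same comparison in the control transfection, made with the 8 other libraries, gave ratios mostly of the same sign that were larger in size. There 10864 of 14478 genes (75%) were called, and over the 13886 genes tested in both transfections 5413 were called in both, 5412 of them with the same sign. The median size of the log2 ratio was 0.49 with miR-106b and 0.84 with the control, and 78.8% of genes had the larger ratio in the control (Spearman's rho 0.876 across genes, which are not independent replicates). The small noncoding RNA list, which holds Rpph1 and Rmrp, went the other way. Its median was 1.67 with miR-106b and 0.75 in the control. No control value is given here for the snoRNA and snRNA classes. Cardiac muscle genes had a median of 2.27 in the control with an SD of 0.03, in place of 0.89 with miR-106b, and E2f1 had a log2 ratio of -2.07 in place of -1.33. The difference between transfections, tested as an interaction in all 16 libraries, passed in 4072 of 14897 genes (27.3%), 1135 with a higher ratio after miR-106b (7.62%) and 2937 with a lower one (19.7%), with 26 of 27 cardiac muscle genes among those lower with miR-106b, but not for E2f1 (edgeR adjusted p = 0.11). For the cardiac list the change lay in the polyA libraries: its summed level was 128788 ± 3977 CPM (SD, n = 4) in Ago2-IP of the control and 125607 ± 4946 CPM with miR-106b, but 33001 ± 5153 and 75282 ± 18503 CPM in polyA RNA. Endothelial genes had means of 2581 and 2512 CPM in Ago2-IP and of 747 and 1555 CPM in polyA RNA, and macrophage genes had means of 2149 and 2116 CPM and of 565 and 1268 CPM. In each of these 3 lists the Ago2-IP ranges of both transfections overlapped and the polyA ranges did not. The control polyA libraries were deeper, with a median of 6450099 counts against 3645937.5, and depth was not tested as a part of this.

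**Figure D5:**
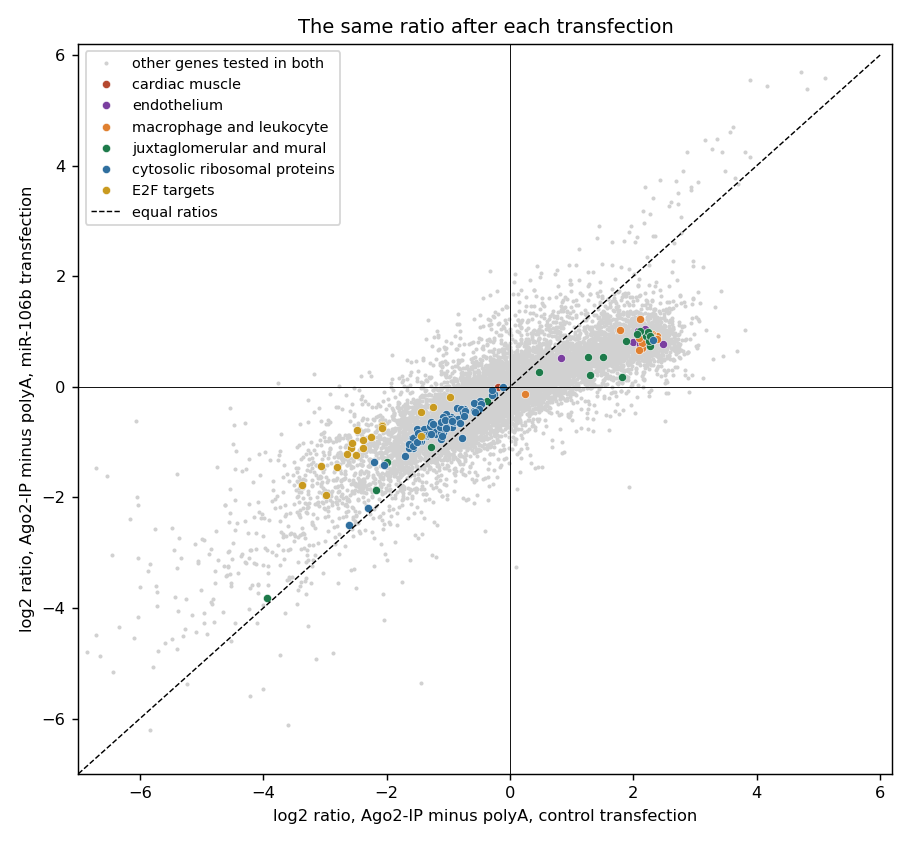
Log2 ratio of Ago2-IP to polyA RNA after miR-106b (vertical axis) against the same ratio after the control transfection (horizontal axis), each point 1 gene tested in both and the dashed line marking equal ratios. Cardiac, endothelial and macrophage genes gather near 2.3 on the control axis and 0.9 on the miR-106b axis, below the line.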

How the data were processed

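The authors aligned single-end, non-strand-specific reads to the mouse genome build GRCm38 after removing ribosomal RNA reads, and counted reads on genes with HTSeq. The submitters' processing notes give TopHat2 version 2.0.10, and the methods of the study another version. The deposited values are raw counts, whole numbers for 46078 genes and 16 libraries, with no normalization. Columns were matched to libraries by name, and 4 libraries per group came from separate cultures per the labels.

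The 8 miR-106b libraries were fitted in R 4.3.3 with edgeR 4.0.16 (TMM scaling, robust quasi-likelihood test, two-sided, Benjamini-Hochberg over all 14305 genes, prior count 0.125). SE is that of the fitted log2 ratio. CPM in the text are TMM scaled, except for the filter, the summed list levels and the shares, which use library size alone. At the edge of the filter, the third-highest level of Igsf5 was 1.05 CPM (kept) and that of Fap 0.971 CPM (left out). Shares of RNA classes were compared by exact permutation over 70 relabellings in Python 3.11.15 with scipy 1.17.1. The change of ratio between transfections was an interaction in a fit of 16 libraries. 3′UTRs and snoRNA ends came from GENCODE M21, in which 45229 gene IDs were found. The edgeR test was tried on simulated counts with 200 genes changed 3-fold, of which 185 were recovered beside 9 false calls. The simulation held a single fixed dispersion for all genes, so that it does not cover the spread of the polyA libraries.

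Members and lists were chosen with earlier results of these data known. Genes were named by a rule: adjusted p under 0.05, groups that do not overlap, and the 10 highest and 10 lowest ratios at 5 CPM in 1 or in both kinds, of which some are given and some genes are not reported here; the 10 genes with the most counts in each kind; all members of the short lists on the study's genes, RISC, JG and mural cells and noncoding RNA; and, of other lists, the 4 most abundant members and those with the highest and lowest ratio. Alternatives were other scalings, filters, tests, a replicate block and leaving out each library, with DESeq2 1.42.0 among the tools.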

Additional observations from a re-analysis of the deposited data

Results flagged for a closer look

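In 5 of 154 groups of 4 libraries checked (where chance marks about 1 group in 20), 1 library stood far from the other 3. Snora78 was highest in polyA library 3 at 15.0 CPM and Meg3 in Ago2-IP library 4 at 177 CPM, and Creb1 was lowest in Ago2-IP library 2 at 12.2 CPM. PolyA library 1 stood above the others for Cyr61 at 547 CPM and for the fibroblast and matrix list at 4.73% of the counts.

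The Ago2-IP to polyA ratio differed between miR-106b and control transfection in 27 of the 67 genes tested among those named, by the interaction in edgeR's quasi-likelihood fit of 16 libraries (Benjamini-Hochberg adjusted p under 0.05), where 27.3% of all genes passed. The named genes were chosen partly by their ratio, so nothing is read from this count. Differences are log2 ratios, miR-106b minus control. Heart genes had the lower ratio with miR-106b, by -1.42 for Myh6, -1.42 for Mb, -1.40 for Actc1, -1.31 for Atp2a2, -1.40 for Tnnt2, -1.48 for Rpl3l, -1.38 for Fabp3 and -1.27 for Cpt1b. The summed level of the heart list had means of 128788 CPM with the control and 125607 CPM with miR-106b in Ago2-IP, with overlapping groups, and of 33001 and 75282 CPM in polyA RNA, with groups that did not overlap. Vessel and myeloid genes were alike, with -1.44 for Cdh5, -1.39 for C1qc, -1.30 for Myh11 and -1.26 for Rgs5. Des, of the mural list, had -1.42, as Myh6 and Mb did. The ratio was also lower for Ppargc1a (-1.38), Meg3 (-1.24), Sdha (-1.03), Vegfa (-0.96), mt-Nd1 (-0.91) and Col1a1 (-0.72). It was higher with miR-106b for Mcm7 (1.32), Pde10a (1.12), Ppia (0.99), Fn1 (0.97), Pan3 (0.66), Rplp0 (0.48), Ago2 (0.47) and Actb (0.46).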

How the results depend on the processing

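The total of 5770 called genes stayed between 5171 and 6959 under other scalings, filters, tests and models, and between 4616 and 5930 when 1 library was left out, except that a test against a fold of 2 called 271. Genes at least 2-fold higher (631) numbered 345 under scaling by library size only, 273 with at least 10 counts in every library and 25 in the test against a fold of 2, and 329 to 998 with 1 library left out. Genes at least 2-fold lower (1219) numbered 745 and 246 under those last 2 settings and 1028 to 1358 with 1 library left out. The causes were not tested. The replicate numbers did not pair the libraries (correlations of same-numbered libraries from -0.15 to 0.005), and a replicate block called 5360 genes, left 583 and 1111 at 2-fold and gave 3897 in the interaction. Under this block Rmrp, Rny1, Foxd1 and Lox no longer passed (adjusted p = 0.057, 0.0877, 0.0603 and 0.109). With 1 library left out, the interaction passed in 3352 to 4821 genes. Differences in the share of counts (Ago2-IP minus polyA, in percentage points) then ranged from 0.198 to 0.414 for snRNA, 0.112 to 0.202 for snoRNA, 0.150 to 0.304 for the ribozyme RNAs, -1.17 to -0.593 for the matrix list and -1.51 to -0.765 for protein-coding genes. Their exact permutation p, with fewer relabellings, lay between 0.0286 and 0.0571, and between 0.0286 and 0.114 for protein-coding genes. Of 1329 gene values under alternatives, 1226 kept direction and side of the threshold, 84 lost the call (44 of them in the test against a fold of 2, where only the null differs, and 40 in other settings), 5 gained it (Mki67 and Cpt1a 2 each, Aqp1 1) and 14 changed sign. Those that changed sign belonged to genes that had not passed: Rn7sk (0.0306 under upper quartile scaling, -0.33 to 0.24 with 1 library left out), Ago2 (0.0158 under upper quartile scaling), Pparg (-0.00811 to 0.44 with 1 library left out), Creb1 (-0.16 to 0.0402) and Myl4 (0.0047 and 0.0048 with DESeq2 size factors and DESeq2's Wald test, 0.0713 under upper quartile scaling, -0.25 to 0.19 with 1 library left out). Small RNA counts below 3 in polyA libraries limit how large a ratio can be measured.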

Other observations

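Immediate early genes, which growth factors and stress induce within minutes, were higher in Ago2-IP in 3 of 21 and lower in 6 (median log2 ratio -0.17). Over all genes 19.6% were higher and 20.8% lower. Cyr61, a matrix-associated growth signal, was at 124, 127, 112 and 133 CPM in Ago2-IP and at 547, 289, 312 and 311 CPM in polyA RNA (log2 ratio -1.56, SE 0.18, edgeR adjusted p = 5.6e-05), so that polyA library 1 stood above the other 3. Of 253 zinc finger genes named Zfp, 17 were higher and 46 lower (median -0.14), but 6 had passed the filter in Ago2-IP alone and 18 in polyA RNA alone, and among the other 229 there were 15 higher and 44 lower. Of 11 replication-dependent histone genes, whose mRNAs lack a poly(A) tail, 2 were higher and 0 lower (median 0.20, and 0.40 in the 8 that passed in both kinds).

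Of 15 common reference genes of RT-qPCR 3 were higher and 6 lower, beside 19.6% and 20.8% of all genes. Actb, cytoplasmic actin, was at 1859, 1892, 1937 and 2029 CPM in Ago2-IP against 3452, 3144, 3635 and 2630 CPM in polyA RNA (log2 ratio -0.74, SE 0.15, edgeR adjusted p = 0.0013), and Ppia, a prolyl isomerase, had a log2 ratio of -0.97. Sdha, a subunit of succinate dehydrogenase, was at 765, 762, 835 and 892 CPM against 369, 548, 391 and 524 CPM (log2 ratio 0.83, SE 0.15, edgeR adjusted p = 0.00076), the opposite direction. Processed pseudogenes, copies of mRNAs in the genome, were lower in 22 of 138 and higher in 5 (median -0.49), both below the shares over all genes, and 60 of them had passed the filter in polyA RNA alone, and among the 64 that passed in both kinds 6 were lower and 3 higher. lincRNA genes were higher in 33 of 244 and lower in 11 (median 0.39), both below the shares over all genes. Of them 46 had passed in Ago2-IP alone and 39 in polyA RNA alone, and among the 159 that passed in both kinds 27 were higher and 5 lower.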
